A study of Mus musculus with 20 samples.

Results

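The comparison set 3T3-L1 cells 24 hours after hormonal induction against preconfluent 3T3-L1 cells, 2 states of the same fibroblast line in which cells divide. 3T3-L1 is an established mouse line of fibroblast-like preadipocytes that turns into fat-storing cells when confluent cultures receive an inducing mixture. Per the labels induction followed the MDI protocol, in standard use isobutylmethylxanthine, dexamethasone and insulin. The 24 hour cells had therefore passed through confluence and received the mixture, and the preconfluent cells had done neither. RNA of each state was hybridised once to each of 2 Affymetrix array types, called array A and array B here, so the comparison used 4 of the 20 arrays of the series. The other 16 arrays hold confluent cells before induction, 6 and 12 hours, and days 2, 3, 4, 7 and 28 after it, and are used here only to place the 2 states in the course. With 1 sample a side and array type, no difference below has a replicate check, and no p-value is given. No uninduced culture of matching age was used, so the hormones, the passage through confluence and time in culture cannot be told apart.

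Preadipocytes stop dividing when they touch each other. After induction they re-enter the cell cycle together and pass through a limited number of divisions, a phase called mitotic clonal expansion, before they leave the cycle for good and switch on fat genes. Sparse fibroblasts in serum divide without coordination, driven by serum growth factors and anchored to the dish by contractile actin bundles. The mixture acts through the glucocorticoid receptor, through cyclic AMP, which isobutylmethylxanthine protects from breakdown, and through the insulin and insulin-like growth factor receptors.

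Each value is a linear intensity per probe set, which can fall below 0. Values under a floor of 136 on array A or 156 on array B were set to that floor for log2 differences, always 24 hours minus preconfluent. A probe set was called higher or lower when the difference was 2-fold or more and the brighter of the 2 values exceeded 500. A fold whose dimmer value lay at or under the floor is a lower bound, written as "at least". A gene was read from the probe set that was brightest over the 10 arrays of its type and carried exactly 1 symbol.

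On array A 169 of 6529 probe sets were higher at 24 hours (2.59%) and 201 were lower (3.08%). On array B 140 of 6540 were higher (2.14%) and 215 were lower (3.29%). Differences of 4-fold or more were called for 55 higher and 50 lower probe sets on array A, and for 37 higher and 45 lower on array B. The dimmer value lay at or under the floor for 37 and 24 of the higher and lower calls on array A and for 24 and 33 on array B. Among 2346 named genes above 500 in either state, 196 were higher (8.35%) and 212 were lower (9.04%), and their median log2 difference was -0.02. These last shares are the background against which the gene lists below are read. Genes with close to the same difference lay on either side of the limit. Ccnd1, a G1 cyclin, read 2120 at 24 hours and 4230 in preconfluent cells and was just outside it, while Nolc1, a nucleolar protein, read 528 and 1060 and was just inside with a log2 difference of -1.01. Between 2-fold and 2.2-fold lay 33 higher and 36 lower calls on array A and 22 and 45 on array B.

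**Figure D1:**
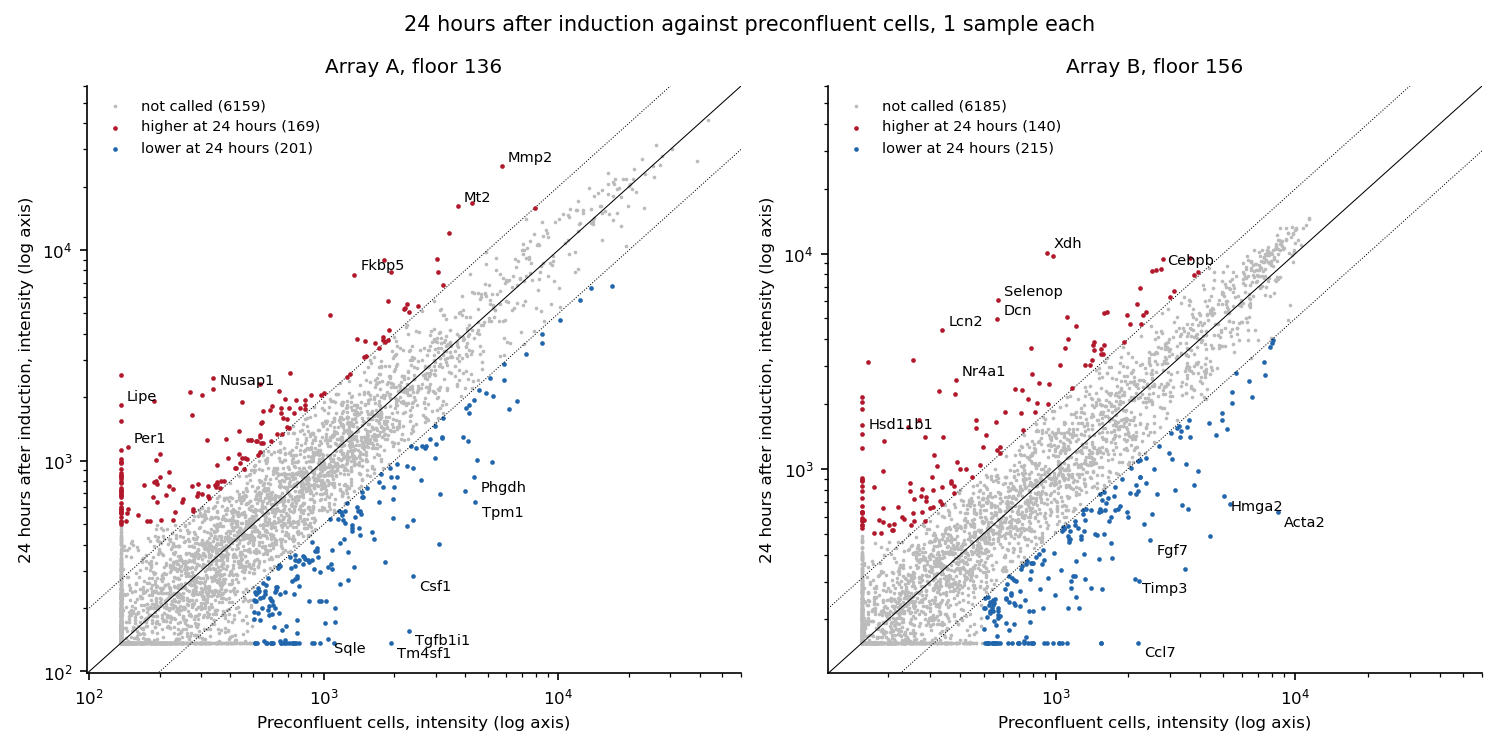
Intensity at 24 hours after induction (vertical, log axis) against intensity in preconfluent cells (horizontal, log axis), array A on the left and array B on the right, each point 1 probe set and each axis 1 sample. Red points are the 169 and 140 probe sets called higher at 24 hours and blue points the 201 and 215 called lower. The solid line marks equal values, the dotted lines the 2-fold limit, and points stacked on an axis lie at the floor of 136 or 156.

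The 2 states had similar signal. On array A 1911 probe sets exceeded 500 at 24 hours and 1938 in preconfluent cells, and on array B 1682 and 1729. The highest gene or control value on array B was 15000 at 24 hours and 11400 in preconfluent cells, far under the 41500 and 43200 of array A, so folds of bright genes on array B may be compressed. Probe sets of array B whose mean of the 2 values exceeded 5000 had a median log2 difference of 0.30 (224 probe sets), against 0.11 on array A (180). As a sign of RNA quality, the 3-prime over 5-prime control ratio on array A was 1.45 at 24 hours and 0.986 in preconfluent cells for Gapdh and 1.45 and 1.05 for beta-actin. On array B it was 0.773 and 0.815 for Gapdh and 1.11 and 0.824 for beta-actin. The part of these shifts in the results was not tested. Of 307 genes with several probe sets above 500, 82 had a called one. Every such probe set was called the same way in 21 of the 82, some were not called in 61, and calls were opposed in 0. The median range between probe sets of a gene was 0.43 on the log2 scale.

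The label of 2 dividing states was checked against markers of division. The 10 measured dividing cell markers summed to 21508 at 24 hours and 21804 in preconfluent cells, and 0 of them was called in either direction. Fibroblast markers summed to 84117 and 86943, with Lum alone at the floor in both states, while Dcn and Pdgfra of the 12 were called higher and Pdgfrb lower. Adipocyte markers summed to 3026 at 24 hours and 848 in preconfluent cells, mostly through Lipe, with Cebpa at the floor in both. Markers of other cell types were dim or not called, with 1 exception. Macrophage markers summed to 3624 and 5998, with Adgre1, C1qa, Csf1r and Fcgr1 at the floor in both states. Lyz2 was lower (378 at 24 hours, 1080 in preconfluent cells). Cd14 (1410 and 2070), Ptprc (1000 and 1510) and C1qb (567 and 567) read above 500 in both states and were not called. Endothelial markers summed to 1076 and 1563, mostly through Kdr (704 and 1010). Skeletal muscle markers summed to 4799 and 4354, mostly through Ckm (3520 and 2970) and Myog (757 and 739). All 3 measured bone and cartilage markers lay at the floor. In these bulk samples, fewer cells of a type and less RNA per cell cannot be told apart.

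Genes of the division machinery differed by small amounts. The proteins of DNA replication copy the genome in S phase, and the mitosis list holds the spindle, kinetochore and cytokinesis proteins of the division that follows. Of 16 DNA replication genes above 500, 0 was called higher and 0 lower, with a median log2 difference of -0.26. Of 25 mitosis genes, 3 were called higher and 0 lower, with a median of 0.41 and 21 of the 25 above 0. Both shares lie near or under those of all named genes.

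These promoters are printed here because they carry the letters searched for in the groups described below: Mcm6 of the replication helicase, Ccnb2, a mitotic cyclin, Errfi1, a hormone response gene, and Hmgcs1 of sterol synthesis. Sequences are RefSeq's for build GRCm38.p6, read along each gene's own strand from 190 bases before the annotated start to 30 bases after it. Mcm6 lies on the minus strand at chr1:128359676-128359895, Ccnb2 on the minus strand at chr9:70421525-70421744, Errfi1 on the plus strand at chr4:150854880-150855099 and Hmgcs1 on the plus strand at chr13:119690161-119690380. Capitals mark E2F letters in Mcm6, CHR and CCAAT letters in Ccnb2, the cyclic AMP element in Errfi1 and the sterol element in Hmgcs1.
Mcm6: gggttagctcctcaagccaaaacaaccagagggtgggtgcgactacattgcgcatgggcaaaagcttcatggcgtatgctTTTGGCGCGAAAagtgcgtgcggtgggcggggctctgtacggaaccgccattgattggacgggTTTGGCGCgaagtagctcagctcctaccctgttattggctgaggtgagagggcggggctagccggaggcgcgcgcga
Ccnb2: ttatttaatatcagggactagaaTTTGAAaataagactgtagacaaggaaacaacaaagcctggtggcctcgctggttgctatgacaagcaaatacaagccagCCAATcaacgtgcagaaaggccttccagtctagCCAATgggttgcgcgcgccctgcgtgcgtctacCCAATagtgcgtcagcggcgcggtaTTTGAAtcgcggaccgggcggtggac
Errfi1: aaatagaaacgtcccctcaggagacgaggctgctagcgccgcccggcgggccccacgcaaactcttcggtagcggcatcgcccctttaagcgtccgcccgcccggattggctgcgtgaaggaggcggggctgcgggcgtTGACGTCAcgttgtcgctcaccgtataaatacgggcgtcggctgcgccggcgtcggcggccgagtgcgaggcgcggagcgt
Hmgcs1: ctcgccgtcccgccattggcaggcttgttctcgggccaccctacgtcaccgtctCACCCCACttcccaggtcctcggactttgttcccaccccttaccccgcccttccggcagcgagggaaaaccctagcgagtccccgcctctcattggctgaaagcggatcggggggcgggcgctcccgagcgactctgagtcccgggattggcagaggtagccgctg

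Windows from 250 bases before to 50 after the start were searched on both strands, and a match is a description of letters, not of binding. The E2F letters TTTCGCGC, TTTGGCGC or TTTCCCGC, known from genes switched on at the entry to S phase, stood in 11 of 26 replication genes with a window (42.3%), in 2 of 28 mitosis genes (7.14%) and in 573 of 27025 genes of the table (2.12%). In Mcm6 they start 110, 106 and 47 bases before the start, and the pair farther from the start overlaps and reads on opposite strands. The letters TTTGAA of the CHR element, known from genes switched on late in the cycle, stood in 21 of 28 mitosis genes (75.0%) against 20.2% of all genes, and CCAAT in 23 of 28 (82.1%) against 41.1%. Ccnb2 holds CHR letters 167 bases before and 4 bases after the start, and CCAAT letters 87, 54 and 21 bases before it. A gene with several annotated starts has more windows and so more chances of a match.

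Nusap1, Nek2 and Aurkb were the called mitosis genes. Nusap1, a microtubule-binding spindle protein, read 2180 at 24 hours and 337 in preconfluent cells, a 6.47-fold difference, with 217 in confluent cells and 197 at 12 hours. Nek2, a centrosome kinase, read 748 and 274, and Aurkb, the kinase of the chromosomal passenger complex, read 679 and 320. The best known proliferation genes differed little: Mki67 read 4490 at 24 hours and 3380 in preconfluent cells, Ccna2 3470 and 2600, Ccnb2 2260 and 1700, Cdk1 4750 and 5070, and Plk1, a mitotic kinase, 1260 and 1440.

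Replication genes leaned slightly the other way without passing the limits, with 10 of 16 below 0 and 6 above. Above 0 were among others Top2a (1160 at 24 hours, 675 in preconfluent cells), Rpa3 (926 and 579) and Dnmt1 (1020 and 730). All of Mcm2, Mcm3, Mcm4, Mcm5 and Mcm7, subunits of the replicative helicase, were dimmer at 24 hours: Mcm3 read 554 at 24 hours and 1010 in preconfluent cells (log2 difference -0.87), Mcm2 944 and 1610 (-0.77), Mcm4 533 and 887 (-0.73). Mcm6, the remaining subunit, read 1250 and 1040 (0.27), from a probe set that may also bind related transcripts. Pcna, the sliding clamp of DNA polymerase, read 2430 and 2890. Of 14 nucleotide synthesis genes 0 was higher and 3 were lower: Impdh1 (at least 3.59-fold) and Adss (2.87-fold), of purine synthesis, and Shmt2 (2.76-fold), which feeds carbon from serine into it. Rrm2, the regulated subunit of ribonucleotide reductase, read 1690 at 24 hours and 3230 in preconfluent cells and was not called. Of the 14, 10 lay below 0 and 4 above, among them Rrm1 (1260 and 836), Tyms (1100 and 653) and Hprt (785 and 400).

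Over the course, mitosis genes were mostly highest at 24 hours. Of 25 mitosis genes above 500 at any time, 21 had their highest value of the 10 times at 24 hours and 4 in preconfluent cells, and all 25 were higher at 24 than at 12 hours. The list's median difference from preconfluent cells was -1.23 in confluent cells, -1.46 at 6 hours, -1.11 at 12 hours, 0.41 at 24 hours and -0.76 on day 2. The replication list had -1.08, -1.18, 0.01, -0.25 and -0.61 at the same times over 19 genes, so it stood near the preconfluent level at 12 hours already. Of these 19, 8 peaked in preconfluent cells, 4 at 12 hours and 4 at 24 hours. Each time is 1 sample, and a peak can rest on it. Set against confluent cells instead, for which 8.92% of 2355 genes were higher and 8.54% lower, 23 of 25 mitosis genes were higher at 24 hours. The 24 hour array is the same in both comparisons, so these values are not independent.

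**Figure D2:**
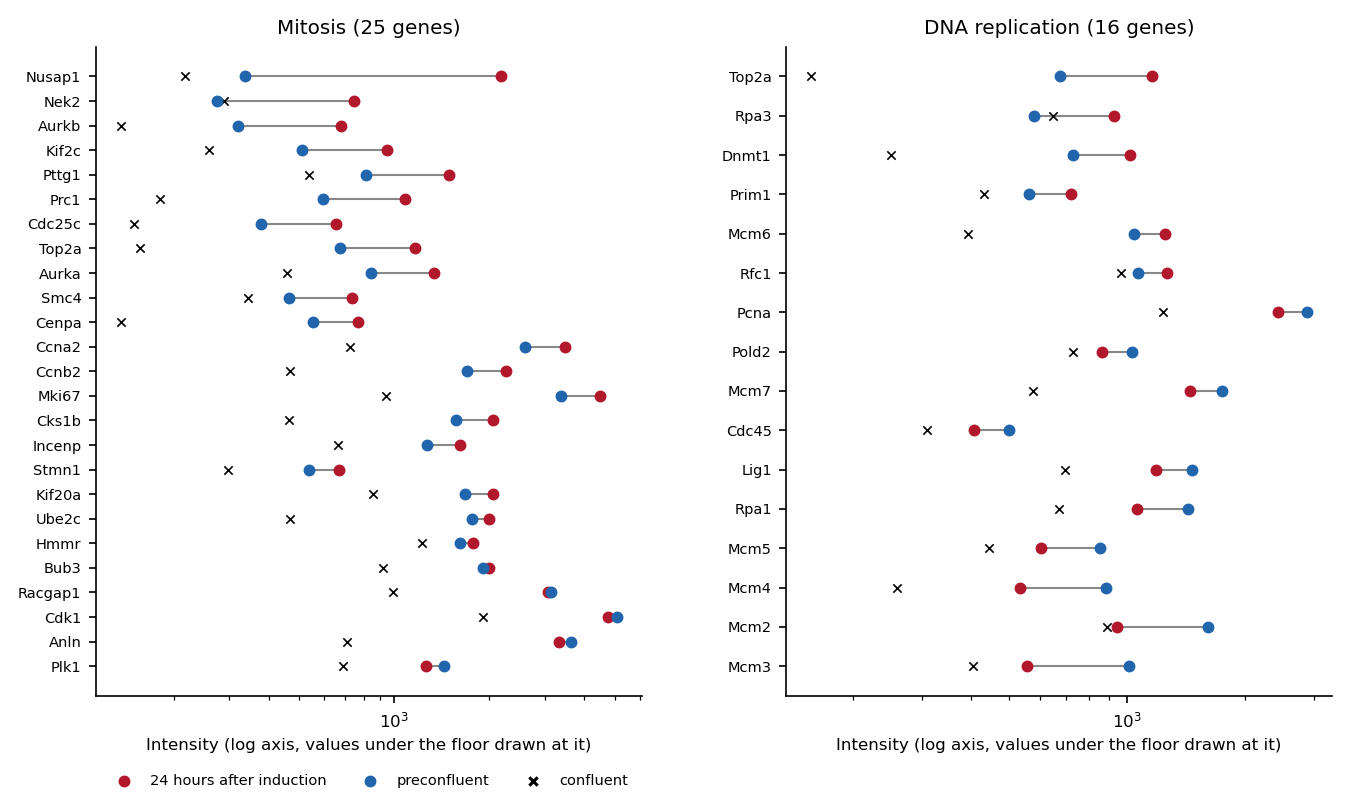
Intensity (log axis) at 24 hours (red), in preconfluent cells (blue) and in confluent cells (crosses) for the 25 mitosis genes on the left and the 16 DNA replication genes on the right, 1 sample per point, values under the floor drawn at it, genes ordered by their difference. Nusap1 stands apart at 2180 against 337, most other pairs lie close together, and the helicase genes Mcm2 to Mcm5 sit at the lower end.

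Few G1 and S phase regulators were called. Of 10 G1 and S phase genes above 500, 1 was called: Ccnd2, a G1 cyclin, was lower with 2160 at 24 hours and 4600 in preconfluent cells. Ccnd3, the remaining D-type cyclin, read 3510 and 2380, and E2f1, a transcription factor of S phase entry, 1170 and 1150. Of 17 genes on the list of cell cycle inhibitors and growth arrest, 5 were higher and 2 lower. The 5 include Pdgfra, a growth factor receptor and not an inhibitor, described below. Against confluent cells 2 of 18 members were higher and 3 lower. The antiproliferative factors Btg1 (5070 at 24 hours, 1110 in preconfluent cells) and Tob1 (1160 and 312) were 4.57-fold and 3.72-fold higher. In confluent cells Btg1 already read 3290 and Tob1 361. The Btg1 probe set may also bind related transcripts. Ddit4, which restrains the growth kinase mTOR and is a known glucocorticoid target, read 4630 and 1210. Cdkn1b, the inhibitor p27 that holds arrested cells in G1, was just inside the limit with 1060 and 523. It read 1190 in confluent cells and 460 at 12 hours. Gas2, a growth arrest gene that binds actin, fell at least 8.16-fold, with 118 at 24 hours and 1110 in preconfluent cells, and 1130 in confluent cells.

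Among the 37 lists the glucocorticoid response had the highest median. Of 22 such genes measured, 14 exceeded 500 in either state. Of these 14, 12 were higher at 24 hours and 0 lower, with a median log2 difference of 1.90, against 8.35% higher over all named genes. Lcn2, Hsd11b1, Per1, Glul and Angptl4 read under 500 in preconfluent cells and entered the 14 only through their 24 hour value. That filter can raise the share and the median, and the list was chosen with earlier results of these data known. Lcn2, the secreted iron-siderophore carrier lipocalin, read 4420 at 24 hours and 336 in preconfluent cells, 13.2-fold, and a further probe set for it read 2040 and -125. Hsd11b1, the enzyme that regenerates active glucocorticoid, read 1460 and -204, at least 9.36-fold. Both read higher at each later of the early times, with 818 and 25 at 6 hours and 2950 and 565 at 12 hours.

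Other members stood higher at 6 or 12 hours than at 24. Fkbp5, a chaperone that dampens the glucocorticoid receptor, read 7640 at 24 hours and 1350 in preconfluent cells, with 9460 at 6 hours and 10600 on day 2. Per1, a circadian clock repressor, read 1160 and 146, with 666 in confluent cells before any hormone and 2000 at 12 hours. Its log2 difference against confluent cells was 0.80, under the 2-fold limit. Mt2, a metal-binding metallothionein, read 16100 and 3720, with 43500 at 6 hours, from a probe set that may bind related transcripts. Errfi1, a feedback inhibitor of the epidermal growth factor receptor, read 2600 and 719, with 4760 at 6 hours, and Dusp1, a phosphatase that switches off MAP kinases, 1830 and 614, with 4730 at 6 hours. Of the 14 members above 500, the 2 not called were Nfkbia (2110 and 1240) and Zfp36 (653 and 530). The other measured members were too dim to be called. Among them, Sgk1, a kinase gene, leaned lower (265 and 364), and Zbtb16, Nr3c1, Saa3, Gjb2 and Cdkn1c lay under the floor in both states. The list's median over 17 genes above 500 at any time was 0.00 in confluent cells, 1.08 at 6 hours and 1.58 at 24 hours.

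Of 13 cyclic AMP response genes measured, 4 exceeded 500 in either state and 2 were higher. Both higher genes passed 500 only through their 24 hour value. Crem, Nr4a2, Atf3, Fos, Ptgs2, Star and Cga lay under the floor in both states. Creb1 (236 and 298) and Plat (105 and 407) leaned lower but were too dim to be called. Rgs2, which shortens G protein signalling, read 2120 at 24 hours and 270 in preconfluent cells, and Nr4a1, an orphan nuclear receptor of the immediate early class, 2590 and 383. The full cyclic AMP element TGACGTCA stood in 0 of 10 measured cyclic AMP response genes with a window and in 2 of 16 measured glucocorticoid genes (12.5%), against 2.03% of all genes. Those 2 were Dusp1 and Errfi1, both called, and in Errfi1 it begins 51 bases before the start. The letters TGTTCT of a glucocorticoid receptor site stood in 2 of the 16 measured glucocorticoid genes (12.5%) and in 0 of the 10 called ones with a window, against 21.3% of all genes.

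Serum response genes were mostly lower than in preconfluent cells. Of 12 immediate early and serum response genes 7 were lower and 1, Dusp1, was higher, with a median of -1.15, against 9.04% lower over all named genes. Phlda1 read 139 at 24 hours and 650 in preconfluent cells. Ccn1, a secreted matricellular protein of the serum and YAP response, read 19 and 598, at least 4.40-fold lower. Ier3 read 261 and 995, Junb 342 and 832, Egr1 387 and 934, Fosl1, a partner of Jun, 531 and 1240, and Klf4 262 and 551. Of the lower genes, all but Fosl1 passed 500 only through their preconfluent value. That filter can raise the share called lower and deepen the median. Among the dimmer members, Myc was level (325 and 331), and Fos, Egr2, Ccn2 and Atf3 lay under the floor in both states. Fosl1 and Junb read less still in confluent cells, at 9 and 127. Ccn1 (86) and Phlda1 (169) were already low there too, while Egr1 read 1720. The list's median from preconfluent cells was -1.18 in confluent cells and -0.72 at 24 hours, over 14 genes above 500 at any time. Against confluent cells, 3 of 8 members were higher at 24 hours and 2 lower, with a median of 0.07.

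Genes of the actin cytoskeleton and of adhesion made up the largest block of lower genes among the lists. Of 41 above 500, 16 were lower at 24 hours and 0 higher, against 9.04% lower over all named genes. Of the 41, 35 lay below 0, and the median was -0.90. Of the lower genes, Tgfb1i1, Tagln, Csrp1, Fhl1, Cd44, Itga5 and Itgb5 passed 500 only through their preconfluent value. That filter can raise the share called lower. Tgfb1i1, a coactivator found at focal adhesions, read 156 at 24 hours and 2310 in preconfluent cells, 14.8-fold lower. Acta2, smooth muscle actin, read 629 and 8440, 13.4-fold lower. Unlike Tgfb1i1, which was already at -190 at 6 hours, Acta2 still read 10600 at 6 hours and 8700 at 12 hours.

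Further contractile genes followed. Tpm1, a tropomyosin that stabilises actin filaments, read 637 at 24 hours and 4420 in preconfluent cells, and Tagln, the actin-binding protein transgelin, 488 and 2260. Zyx, zyxin of focal adhesions, read 2020 and 5420. Fhl1 was at least 7.11-fold lower (50 and 967) and Actg2, a smooth muscle actin whose probe set may bind other actins, 5.57-fold lower (715 and 3980). The adhesion receptors Cd44 (109 and 705), Itga5 (365 and 802) and Itgb5 (239 and 552) were lower too.

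The list's median difference from preconfluent cells was -0.17 in confluent cells, -0.25 at 6 hours, -0.47 at 12 hours, -0.90 at 24 hours and -1.27 on day 2. Against confluent cells 13 of 35 members were lower and 0 higher. Probe sets did not always concur for the abundant actin genes. Actg1, a cytoplasmic actin, was lower on array A (5800 and 12300) and not on array B (11000 and 10500), and Anxa2, which links actin to membranes, was lower on A (6770 and 16900) and not on B (7840 and 7430). The beta-actin 3-prime control likewise read 21100 and 31300 on A, and 11000 and 6270 on B. For Myh9, the heavy chain of non-muscle myosin, 1 probe set was lower (301 and 2230) while its brightest was not called.

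**Figure D3:**
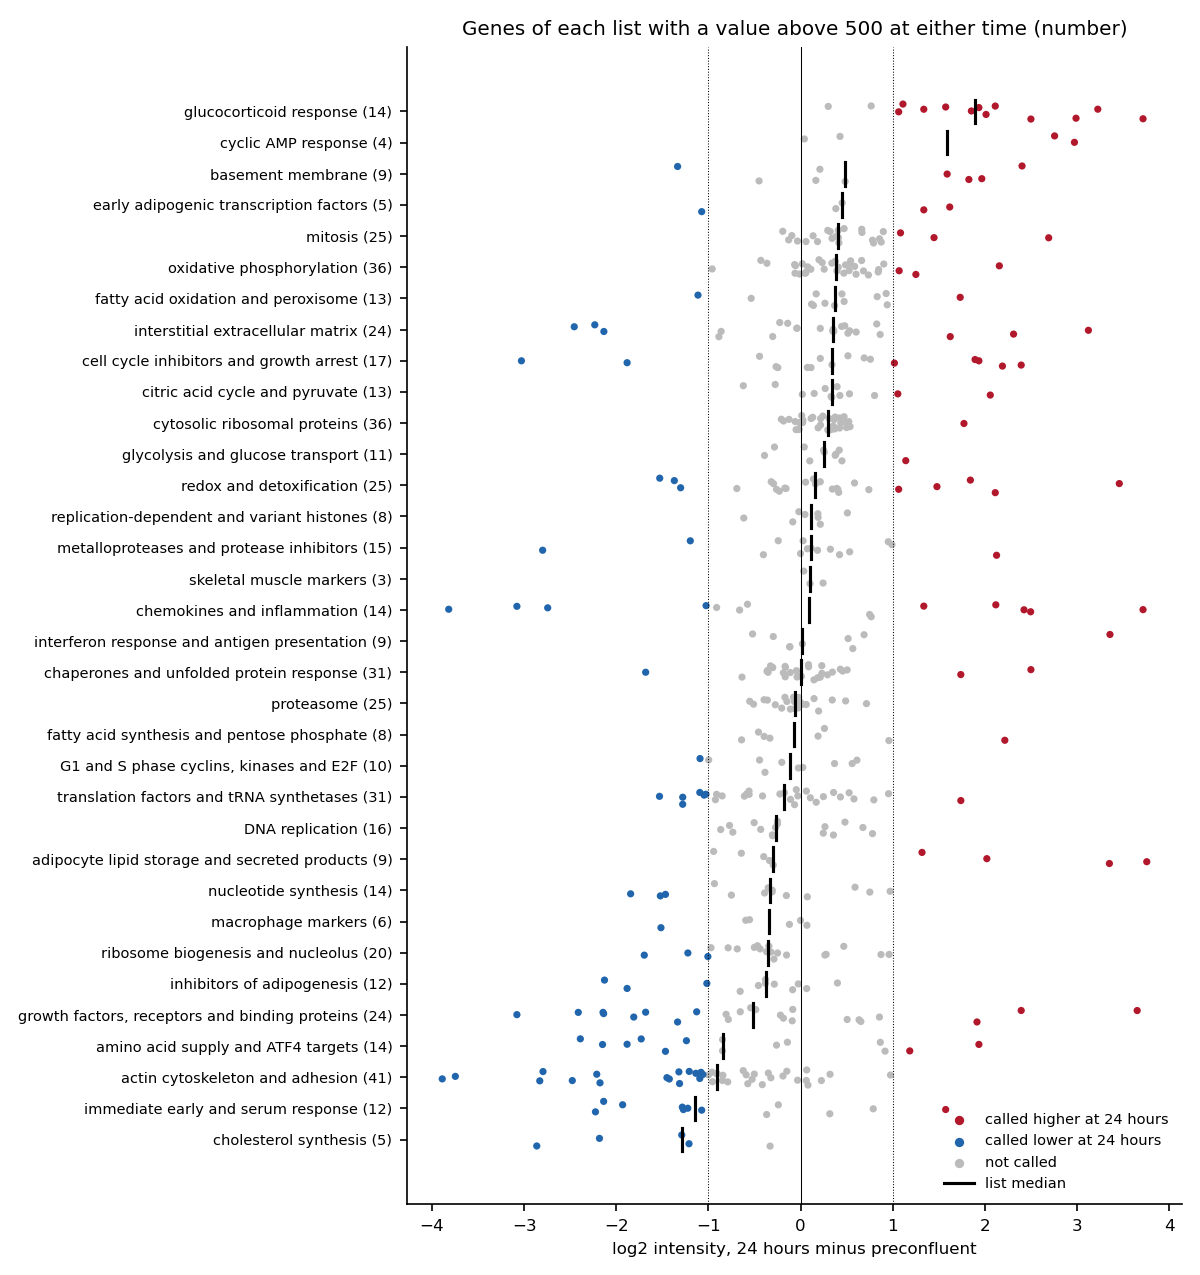
Log2 intensity at 24 hours minus preconfluent (horizontal) for the genes of each list with a value above 500 in either state, 1 point per gene, the number of genes in brackets, lists ordered by their median (black bar) and vertical jitter without meaning. Red and blue points are genes called higher and lower. The glucocorticoid list stands at the top with 12 of 14 genes called higher, and the cholesterol, immediate early and actin lists at the bottom with 4 of 5, 7 of 12 and 16 of 41 called lower.

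Growth factor genes differed in both directions. Of 24 growth factors, receptors and binding proteins 3 were higher and 8 lower. Pdgfra and Pdgfrb, the receptors for platelet-derived growth factor, moved apart: Pdgfra read 1010 at 24 hours and 192 in preconfluent cells, while Pdgfrb read 387 and 1710. The ligand gene Pdgfa was lower as well (446 and 1430). Pdgfra read 975 in confluent cells and 489 at 12 hours, so it stood higher in confluent cells than at 12 hours.

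Igfbp4, which binds insulin-like growth factors, read 3210 and 255, a 12.6-fold rise. Kitl, the ligand of the receptor Kit, was at least 3.77-fold higher (513 and 57). Csf1, the macrophage growth factor, read 283 at 24 hours and 2390 in preconfluent cells, and Fgf7, the keratinocyte growth factor of stromal cells, 466 and 2480. Prl2c2 and Prl2c3, secreted proliferins first known from growing mouse fibroblasts, read 1760 and 6170 and 2550 and 6430, from probe sets that may bind each other's transcripts. Hmga2, a chromatin protein of growing embryonic cells, read 749 and 5030, with 953 in confluent cells and 5060 at 6 hours.

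Chemokine and acute phase genes split within 1 list of 14, with 5 higher and 4 lower. Ccl7 and Ccl2, chemokines that attract monocytes, read 58 at 24 hours against 2200 in preconfluent cells and -105 against 911, falls of at least 14.1-fold and at least 6.70-fold. Cxcl12 was lower with 2880 and 5860. Higher beside Lcn2 were Hp, the haemoglobin scavenger haptoglobin (881 and 114), Il6st, the shared receptor subunit of the IL6 cytokine family (1080 and 201), and Cx3cl1 (591 and 19). Outside that list, Serpina3n, an acute phase protease inhibitor, read 983 and -211.

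A few matrix genes were called in each direction. Of 24 interstitial matrix genes 3 were higher and 3 lower, against 8.35% higher and 9.04% lower over all named genes. Dcn, the collagen-binding proteoglycan decorin, read 4980 at 24 hours and 571 in preconfluent cells, 8.72-fold, yet 9880 in confluent cells. Postn, periostin, read 6910 and 2240, with 8770 in confluent cells. Mmp2, a gelatinase from the metalloprotease list, read 25000 and 5720, with 24900 in confluent cells. Dcn, Postn and Mmp2 thus stood near or above their 24 hour value in confluent cells, before any hormone.

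Vcan, the large proteoglycan versican, was the remaining higher gene of the interstitial list. It read 8940 at 24 hours and 1800 in preconfluent cells, with 3490 in confluent cells and 11000 at 12 hours. Among 9 basement membrane genes 4 were higher and 1 lower. Col4a1 and Col4a2, the paired chains of type IV collagen, read 12100 and 3410, and 16700 and 4270, and stood higher at 12 hours (16500 and 26900). The laminin chains Lama4 (720 and 70) and Lamc1 (1820 and 604) were higher with them. Lower were Fbln1, of basement membranes (309 and 779), and the interstitial Thbs1 (217 and 1020), Thbs2 (79 and 597) and Mfap2 (77 and 746). Timp3, a matrix-bound inhibitor of metalloproteases, read 309 and 2150 with 2350 at 6 hours and 508 at 12 hours.

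**Figure D4:**
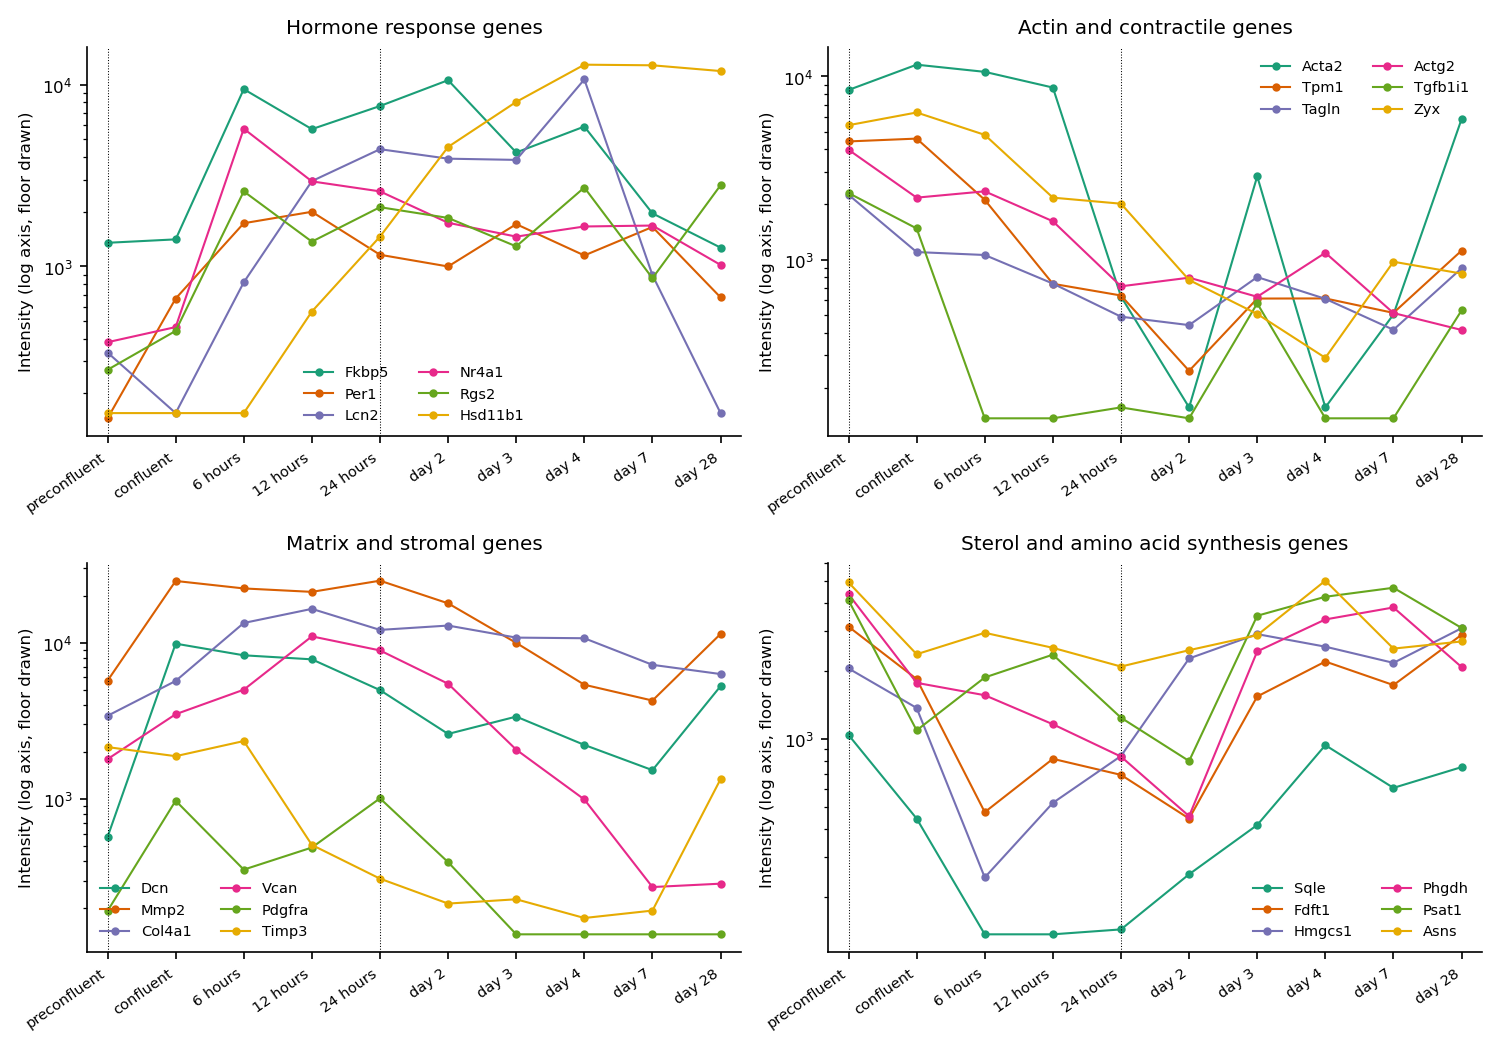
Intensity (log axis, values under the floor drawn at it) over the 10 time points for 24 genes in 4 groups, 1 sample per point, spacing of the times not to scale, with dotted lines at preconfluent and 24 hours. Dcn and Mmp2 reached their level in confluent cells, Fkbp5 and Nr4a1 peaked at 6 hours among the early times, Acta2 read 10600 at 6 hours, 8700 at 12 hours and 629 at 24 hours, and Sqle was at the floor at 6 and 12 hours.

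Most of the cholesterol synthesis genes above 500 were lower at 24 hours. Of 5 cholesterol synthesis genes above 500, 4 were lower and all 5 lay below 0, with a median of -1.29. Sqle, squalene epoxidase, read 143 at 24 hours and 1040 in preconfluent cells, and Fdft1, squalene synthase, 692 and 3140. Hmgcs1, which condenses the precursor of mevalonate, read 839 and 2050, and Idi1, an isomerase of the isoprene units, 523 and 1210. The list's median from preconfluent cells was -0.68 in confluent cells, -2.83 at 6 hours and -1.25 at 24 hours over 6 genes. The sterol element letters CACCCCAC stood in 1 of 7 measured cholesterol synthesis genes with a window (14.3%), against 3.30% of all genes. That gene was Hmgcs1, where they begin 136 bases before the start.

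Of 14 amino acid supply genes and targets of the stress factor ATF4, 6 were lower and 2 higher. Phgdh, which opens serine synthesis, read 834 at 24 hours and 4370 in preconfluent cells, and Psat1, the next enzyme, 1240 and 4110. Asns, asparagine synthetase, read 2090 and 4930, and Trib3, a pseudokinase target of ATF4, 89 and 603. Ddit3, the stress factor CHOP, read -571 and 575, with 2540 in confluent cells. The higher members were Ddit4 and Slc1a5, a glutamine carrier (1690 and 743). Among 31 translation factors and tRNA synthetases 6 were lower, of which Aars (2420 and 5870), Sars (577 and 1400), Cars (405 and 1170) and Tars (746 and 1520) charge transfer RNAs. The others were Eif4ebp1, the translation repressor bound by the cap-binding factor (3980 and 8490), and Eif3c (2470 and 5100), and 1 member was higher, Eif2b5 (1550 and 464).

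Ribosome biogenesis had 0 higher and 3 lower of 20 genes, Nolc1, Nip7 (1170 and 2730) and Tcof1 (297 and 962), with a median of -0.36. Cytosolic ribosomal proteins had 1 of 36 called, Rpl10 (554 and 162), a median of 0.30 and 29 above 0. Most of their probe sets are bright, and bright probe sets as a whole leaned upward, as given above. Proteasome genes had 0 of 25 called in either direction and a median of -0.06, and histones 0 of 8. Among 31 chaperones and unfolded protein response genes, P4hb, which forms disulfide bonds in the secretory pathway (5310 and 1590), was higher beside Fkbp5, and the small heat shock protein Cryab (496 and 1590) was lower.

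Of 5 early adipogenic transcription factors 2 were higher and 1, Klf4, was lower. Cebpb and Cebpd, the transcription factors that open adipogenesis, read 8450 and 2750 and 1810 and 716 at 24 hours and in preconfluent cells, 3.07-fold and 2.53-fold higher. The C/EBP letters TTGCGCAA stood in 3 of 159 promoters of higher genes (1.89%), in 0 of 162 of lower genes and in 0.207% of all genes. Pparg read 267 and 102, under the limit of 500 in both states, and Cebpa was at the floor in both. Dlk1, the preadipocyte factor Pref-1, was close to level with 5510 and 5260.

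Of 9 genes for lipid storage and secreted products above 500, 4 were higher and 0 lower, but the median was -0.30. The other 5, Plin2, Fabp5, Retn, Rbp4 and Slc27a1, lay below 0 and were not called. Of the higher genes, Lipe, Adipor2 and Dgat1 passed 500 only through their 24 hour value. Fabp4 (269 and 191) and Adipoq (152 and 96) were too dim to be called. Cd36, Gpd1 and Dgat2 lay under the floor in both states. Lipe, hormone-sensitive lipase, read 1840 and -651, at least 13.5-fold higher, with 688 in confluent cells and 12600 on day 2. Adipor2, an adiponectin receptor, read 1920 and 188. Lpl, lipoprotein lipase, read 7880 and 1940, with 9280 in confluent cells, and Dgat1, of triglyceride synthesis, 1080 and 433. Scd1, a fatty acid desaturase, was the 1 called of 8 fatty acid synthesis genes, with 4930 and 1060. Among 12 inhibitors of adipogenesis, Gata2 (176 and 769), Id3 (865 and 1750) and Ddit3 were lower, and Id1 (5920 and 6020) and Id2 (1530 and 1990) were not called.

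Energy metabolism held few called genes. In oxidative phosphorylation 3 of 36 genes were higher and 0 lower, with 29 above 0 and a median of 0.39: Uqcrfs1 (763 and 171), Ndufb11 (5240 and 2200) and Atp5k (2100 and 1000). In the citric acid cycle and pyruvate list 2 of 13 were higher, Pcx, pyruvate carboxylase (567 and -42), at least 4.17-fold, and Idh1, 2.08-fold. Glycolysis had 1 of 11 higher, Ldhb (830 and 376), and fatty acid oxidation 1 higher and 1 lower of 13, Echs1 (1270 and 382) and Cpt1a, the entry step of the pathway (412 and 891). Among 25 redox genes 5 were higher and 3 lower. Xdh, xanthine dehydrogenase, read 10100 and 918, and 10100 also at 6 and 12 hours, close to the top of the range seen on array B. Hmox1, haem oxygenase, read 1030 and 2970, Gstm1 925 and 2390, and Gsto1 1680 and 4140.

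**Figure D5:**
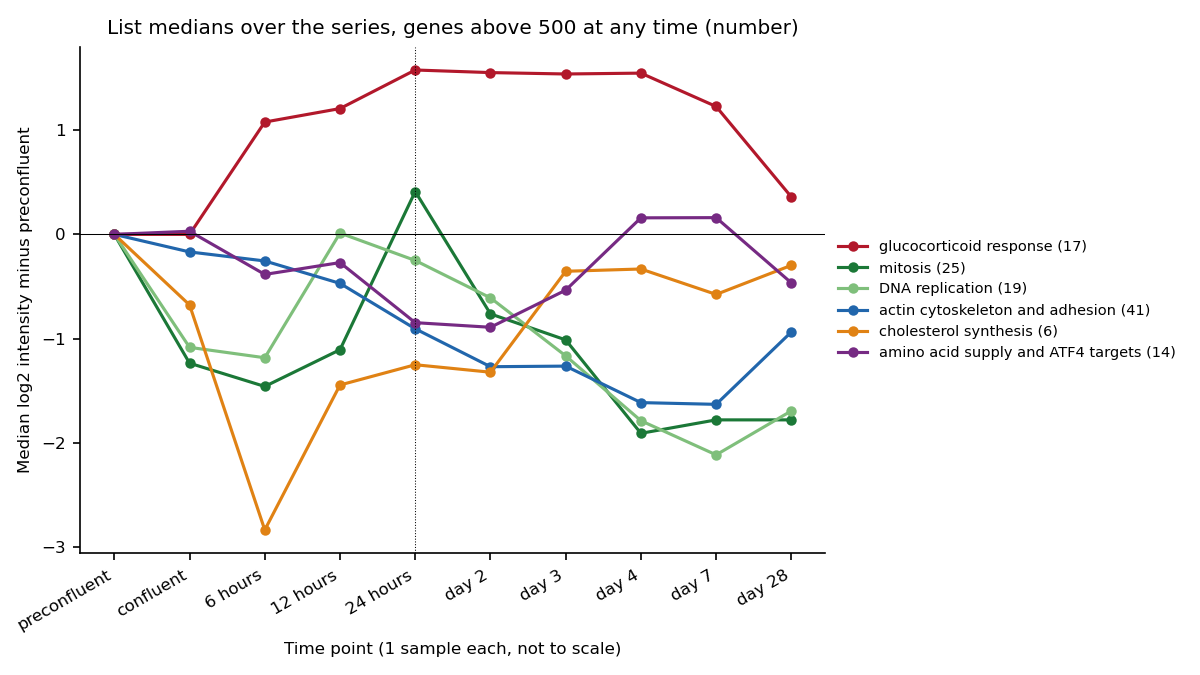
Median log2 intensity minus preconfluent (vertical) at the 10 time points (horizontal, 1 sample each, not to scale) for 6 gene lists, taken over members above 500 at any time, whose number stands in brackets. At 24 hours (dotted line) the glucocorticoid list lies at 1.58 and mitosis at 0.41, DNA replication at -0.25, actin and adhesion at -0.90 and cholesterol synthesis at -1.25. All curves share the preconfluent arrays.

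Further genes named by the size of their difference went both ways. Higher at 24 hours were Selenop, the selenium carrier of plasma (6080 and 574, with 5270 in confluent cells), Ctla2a, a cysteine protease inhibitor (9710 and 971), Maf, a leucine zipper factor (1350 and 192), and Ormdl3, a regulator of sphingolipid synthesis (2290 and 326). Entpd6 (1550 and -11), Sidt2 (1130 and -491), Cirbp, a cold-inducible RNA-binding protein (1020 and 74), Cd302 (2480 and 338), Aldh4a1 (2050 and 301) and the long noncoding RNA Neat1 (1640 and 274) followed. Ifi204, of a family of similar interferon-inducible genes, was the 1 called of 9 interferon response genes (1600 and 131). Lower were Tm4sf1, a membrane protein (38 and 1930, and 173 in confluent cells), Fxyd5 (171 and 1120), Phldb2 (170 and 1010), the signalling adaptor Dok1 (201 and 1120), Tnnt2, a troponin (72 and 782), Sncg (-326 and 759), the cardiac actin Actc1 (652 and 3560) and Dpysl3 (681 and 3350). Sncg, a synuclein, read 18500 on day 28. The lower genes also held the kinases Prkcd (253 and 1220) and Gsk3a (-56 and 807), Srrm1, a splicing cofactor (112 and 695), and Map1s (-78 and 633). Plaur, the urokinase receptor and a member of the protease list, was lower on 1 probe set with 91 and 740 and on another with 354 and 811. For Itga3, an integrin, 1 probe set was higher (891 and 108) and 2 others were near level (802 and 773, 1130 and 1330).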

How the data were processed

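Per the labels, total RNA was turned into labelled cRNA and hybridised to Affymetrix arrays after the maker's protocol. The authors deposited linear intensity values, 1 per probe set. All 20 arrays had trimmed means from 500.9 to 501.1, and no further scaling was applied. Which software or scaling made them is not given in the sources used here. Arrays A and B hold different probe sets and were kept apart. Each state had 1 sample per array type, and arrays give no counts, so the number of arrays limits the precision and no test was run. With Python 3.11.15, pandas 2.3.3 and numpy 2.4.6, 110 control probe sets were left out, which left 13069, and values under 136 (A) or 156 (B), the 10th percentile of an array type with its sign turned, were set to it. Then log2 differences were called at 2-fold with the brighter value above 500. Names came from the platform annotation: 7542 probe sets had 1 symbol, 224 several and 5303 none. The calling step was checked on simulated data. In each direction and array type, the rule named the 8 largest differences with the dimmer value above the floor, the 6 largest bounds, and members of 37 gene lists. The comparison, its limits and the lists were chosen with earlier results of these data known. Alternatives covered the floor, both limits, the scaling, family probe sets, the mean over a gene's probe sets, and other samples on either side. Drawings used matplotlib 3.10.9.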

Additional observations from a re-analysis of the deposited data

How the results depend on the processing

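Of 155 called values of named and listed genes, 0 changed sign under a floor of 300, a floor of 50, centring on the median, quantile normalization or the mean of 12 and 24 hours in place of 24 hours, and 12, 0, 4, 3 and 35 of them were no longer called under these settings. With 24 hours minus confluent 17 changed sign and 66 were no longer called. Stricter limits set the counts. With the brighter value above 1000, array A had 93 higher and 101 lower probe sets and array B 81 and 121, and 46 list genes were lower, against 169, 201, 140, 215 and 70. At 3-fold the counts were 79, 77, 66, 88 and 32. Fewer probe sets can pass stricter limits by construction. With 24 hours minus confluent, 137 probe sets were lower on array B and 86 list genes were higher, against 215 and 55. The reversed log2 differences against confluent cells were -0.17 for Cdkn1b, -0.99 for Dcn, -0.80 for Gstm5, -0.87 for Ldhb, -0.24 for Lpl, -0.35 for Maf, -0.19 for Neat1, -0.34 for Postn and -0.47 for Rpl10, and 1.77 for Fosl1, 1.23 for Itga5, 1.33 for Junb, 1.07 for Nolc1, 0.67 for Prl2c2, 0.92 for Prl2c3, 0.19 for Psat1 and 0.47 for Shmt2. Those 17 place the preconfluent and confluent samples on opposite sides of the 24 hour sample. Mitosis genes higher numbered 3, and 0 with the mean of 12 and 24 hours. No paired analysis was possible because each state was 1 sample per array type, and for the same reason no sample could be left out. Values near the floor are limited by signal over background.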
